A study of Mus musculus with 22 samples.

Results

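The mouse mitochondrial genome is a small circular DNA that encodes 13 proteins, 2 ribosomal RNAs and the transfer RNAs needed to translate them. Described here are 10 of its 13 messenger RNAs: mt-Nd1, mt-Nd2, mt-Nd4, mt-Nd5 and mt-Nd6 (complex I), mt-Cytb (complex III), mt-Co1, mt-Co2 and mt-Co3 (complex IV) and mt-Atp6 (complex V, the ATP synthase). They were chosen by name, as the genes whose Ensembl identifiers carry these symbols, and all 10 were found among the 55414 genes of the count table and passed the filter on low counts. The other 3 messenger RNAs, mt-Nd3, mt-Nd4l and mt-Atp8, are given by their values further on.

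The libraries are bulk RNA-seq of mouse skin fibroblasts purified by flow cytometry as live CD34+ PDGFRα+ cells without the surface proteins CD31, CD45, CD117 and EpCAM. All mice had the same back skin surgery. In the EXP group a hydrogel that swells and stretches the overlying skin was placed under the skin, and in the CTRL group no expander was placed. Fibroblasts were collected at day 1 (4 CTRL and 5 EXP libraries), day 2 (3 and 3) and day 4 (4 and 3). Strain, sex and age are not given in the sources used here, and nothing says whether the replicates came from separate mice, so p-values measure the spread between these libraries, which may be technical in part.

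The electron transport chain passes electrons through complexes I, III and IV and pumps protons, and ATP synthase uses the proton gradient. The mitochondrial genome supplies core membrane subunits of these 4 complexes and the nucleus supplies the rest. Both strands are transcribed as long precursors that are cut at the transfer RNAs between the genes. Among the 10 messenger RNAs, mt-Nd6 alone is transcribed from the light strand. Separate messenger RNAs from 1 precursor can therefore differ in level through how they are cut, tailed and degraded.

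Libraries held 21461294 to 30210204 counts each, and libraries of a group differed by more than sampling noise. Col3a1, Col1a1 and Col1a2 together took 22.9% ± 2.19 (SD, n = 4) of the counts in CTRL and 12.2% ± 2.34 (n = 5) in EXP at day 1, 28.6% ± 1.92 (n = 3) and 12.2% ± 4.73 (n = 3) at day 2, and 26.0% ± 3.59 (n = 4) and 16.4% ± 7.27 (n = 3) at day 4. A gene's share of all counts therefore rises in EXP when the collagens fall, and values below are given both as shares of all counts and after TMM scaling, which sets most genes to no change. The 8 fibroblast markers, which include these collagens, summed to a median of 261741, 372915 and 351112 CPM in CTRL and 114942, 134248 and 163135 CPM in EXP at days 1, 2 and 4. Of the 2 genes whose proteins were sorted for, Cd34 was at -1.74 log2 at day 1 (adjusted p = 8.10e-04) and -2.07 at day 2 (adjusted p = 0.00379), and Pdgfra was at 1.71 at day 2 (adjusted p = 0.00134). Summed levels of other cell types' markers that did not overlap between the arms, and some that did, are given beside each day. A split of 192 genes around Rnf10 set 7 libraries apart: CTRL 1, 2 and 3 and EXP 1 and 2 of day 1, and CTRL 3 and 4 of day 4. These libraries are unevenly divided between the arms, with no EXP library of day 4 among them.

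Several of the 10 genes have near-identical copies in the nuclear genome, which matters for reading their counts. In GENCODE M21 transcripts, Gm10925 matched mt-Atp6 at 100% identity over 678 of 681 bases, Gm28437 matched mt-Co3 at 100% over 783 of 784 bases, and Gm28661 matched mt-Co2 at 100% over 681 of 684 bases. Gm28439 matched mt-Nd4 at 100% over 876 of 1378 bases, and Gm29216 matched mt-Co1 at 99.8% over 483 of 1545 bases. No copy was found for mt-Nd1, mt-Nd6 or mt-Cytb at 95% identity over at least 100 bases. The windows below show why a read cannot always be placed: capitals mark bases that differ from the mitochondrial gene, and each window is 60 bases of the transcript, 5′ to 3′.
mt-Atp6, bases 1 to 60: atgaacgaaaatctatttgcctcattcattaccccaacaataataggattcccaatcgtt
Gm10925, the same window: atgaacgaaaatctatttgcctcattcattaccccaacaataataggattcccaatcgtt
mt-Co1, bases 1121 to 1180: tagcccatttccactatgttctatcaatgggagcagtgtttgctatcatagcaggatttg
Gm29216, the same window: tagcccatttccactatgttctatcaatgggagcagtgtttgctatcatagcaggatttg
Gm13340, the same window: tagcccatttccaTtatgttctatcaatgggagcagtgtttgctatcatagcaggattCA
mt-Nd2, bases 667 to 726: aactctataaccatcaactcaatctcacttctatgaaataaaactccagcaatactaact
Gm13339, the same window: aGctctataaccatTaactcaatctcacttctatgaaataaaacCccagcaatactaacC

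The counts followed this sequence likeness only in part. Gm28439 matched more of its gene than Gm29216 did, yet held a smaller percentage of that gene's count. The 3 copies that match at 100% over nearly the whole gene held about as many counts as the gene itself: Gm10925 held 109% to 116% of the mt-Atp6 count over the 22 libraries, Gm28437 held 101% to 107% of mt-Co3, and Gm28661 held 89.4% to 94.4% of mt-Co2. Gm29216 held 28.9% to 38.4% of mt-Co1 and Gm28439 held 17.9% to 22.4% of mt-Nd4. Copies with 95.2% to 97.6% identity held far less: Gm13341 4.22% to 6.66% of mt-Co2, Gm13340 2.21% to 4.08% of mt-Co1, Gm13339 1.98% to 3.34% of mt-Nd2 and Gm4076 0.121% to 0.579% of mt-Nd5. How reads that match more than 1 place were assigned is not given in the sources used here, so the counts of mt-Atp6, mt-Co2 and mt-Co3, and in part of mt-Co1 and mt-Nd4, may be divided with the copies or counted in both places. Adding each copy to its gene left the number of messenger RNAs that passed the test at 8, 1 and 0 on days 1, 2 and 4.

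**Figure D1:**
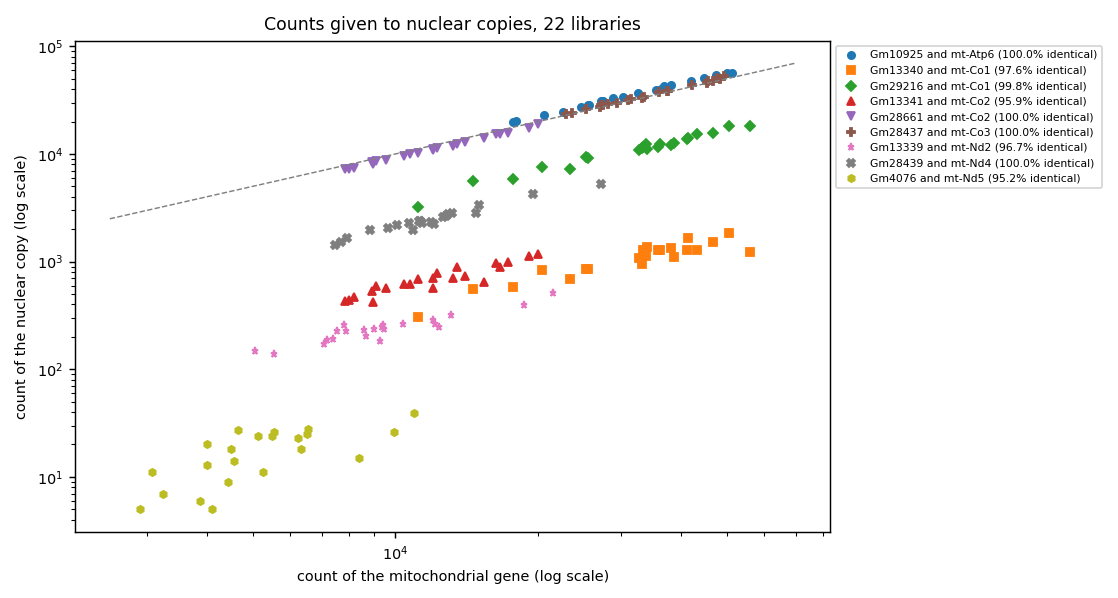
Counts of 9 nuclear copies (vertical, log scale) against the mitochondrial gene each matches (horizontal, log scale), 1 point per library, 22 libraries; the dashed line marks equal counts. Copies of mt-Atp6, mt-Co2 and mt-Co3 that are 100% identical lie along the line, those of mt-Co1 and mt-Nd4 lie below it, and copies of lower identity hold 6.66% or less of the gene's count.

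Together the 10 messenger RNAs took 0.459% to 1.43% of all counts in single libraries, with a larger mean share in EXP on each day. At day 1 they took 0.663% ± 0.0320 (SD, n = 4) in CTRL and 1.09% ± 0.237 (n = 5) in EXP, and the ranges, 0.627% to 0.699% and 0.864% to 1.43%, did not overlap. At day 2 they took 0.566% ± 0.141 (n = 3) and 1.02% ± 0.0942 (n = 3), again without overlap. At day 4 they took 0.619% ± 0.108 (n = 4) and 0.865% ± 0.129 (n = 3), and the ranges, 0.510% to 0.768% and 0.743% to 1.00%, overlapped. The EXP to CTRL ratio of these shares was 1.65, 1.81 and 1.40. With the 10 genes of highest count left out of the totals, the ratio was 1.42, 1.41 and 1.17.

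Levels of the messenger RNAs differed widely among themselves. In day 1 CTRL libraries, CPM (counts scaled to a fixed library total, after TMM) per kilobase of transcript ran from 1536 ± 82.5 (SD, n = 4) for mt-Atp6 and 1451 ± 153 for mt-Co3 through mt-Nd1 (990 ± 188), mt-Cytb (897 ± 74.6) and mt-Co1 (877 ± 85.7) to mt-Co2 (557 ± 53.2). Next came mt-Nd2 (301 ± 32.2) and mt-Nd4 (288 ± 18.4), and mt-Nd5 (89.9 ± 8.23) and mt-Nd6 (68.7 ± 8.24) were lowest. Along this order the ranges of neighbours overlapped except between mt-Co1 and mt-Co2, mt-Co2 and mt-Nd2, and mt-Nd4 and mt-Nd5. With nuclear copies added, mt-Atp6 stood at 3268 ± 182 and mt-Co3 at 2949 ± 296 CPM per kilobase, while mt-Co1 (1212 ± 110) and mt-Co2 (1108 ± 100) passed mt-Nd1, so the middle of the order depends on how shared reads were assigned. mt-Nd5 and mt-Nd6 stayed lowest. They lie next to each other on opposite strands, and since strandedness of the counting is not given in the sources used here, reads where they overlap cannot be told apart.

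At day 1 the 5 complex I messenger RNAs had the largest fold changes of the 10 in EXP fibroblasts, led by mt-Nd1. By edgeR's quasi-likelihood test with Benjamini-Hochberg adjustment over 17554 genes, 8 of the 10 were higher, and mt-Co3 and mt-Co1 did not pass. Of all genes tested, 28.6% passed at day 1, 13.9% as higher and 14.7% as lower. The median log2 fold change was 0.60 over the 10 and 0.02 over all genes tested.

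mt-Nd1, a core membrane subunit of complex I, measured 829, 979, 793 and 1189 CPM in the CTRL libraries and 1840, 1880, 2589, 1960 and 1446 CPM in the EXP libraries at day 1. Every EXP library was above every CTRL library. The fold was 2.05 (log2 1.04, SE 0.19, adjusted p = 5.24e-04, edgeR).

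mt-Nd2, another proton-pumping membrane subunit, measured 305, 304, 282 and 360 CPM in CTRL and 459, 486, 783, 596 and 442 CPM in EXP at day 1. The groups did not overlap, and EXP 3 was the highest library. Its log2 fold change was 0.82 (SE 0.20, adjusted p = 0.00463, edgeR), a fold of 1.77.

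mt-Nd5, a large subunit at the far end of the membrane arm, measured 170, 164, 143 and 179 CPM in CTRL and 293, 252, 399, 317 and 238 CPM in EXP at day 1. The lowest EXP library was above the highest CTRL library. The log2 fold change was 0.87 (SE 0.18, adjusted p = 0.00111, edgeR).

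mt-Nd6, the light-strand messenger RNA, measured 34.0, 34.5, 32.2 and 41.9 CPM in CTRL and 53.1, 50.5, 86.5, 69.3 and 51.3 CPM in EXP at day 1. It also separated the arms, by 0.80 on the log2 scale (SE 0.20, adjusted p = 0.00472, edgeR). With strandedness of the counting not given, reads from the heavy strand at this gene cannot be told apart from its own.

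mt-Nd4, the remaining complex I member, measured 398, 375, 383 and 432 CPM in CTRL and 524, 523, 984, 622 and 480 CPM in EXP at day 1. The groups did not overlap, and EXP 3 stood far above the other EXP libraries. The log2 fold change was 0.66 (SE 0.21, adjusted p = 0.0216, edgeR), and without EXP 3 it was 0.44 (adjusted p = 0.0823).

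Messenger RNAs of the other complexes had smaller fold changes at day 1, a difference between genes that was not tested. mt-Cytb, the membrane core of complex III, was at 903 to 1099 CPM in CTRL and 1165 to 2103 CPM in EXP, a log2 difference of 0.54 (SE 0.19, adjusted p = 0.0339). mt-Co2, which receives electrons from cytochrome c, was at 342 to 428 and 438 to 697 CPM (0.51, SE 0.18, adjusted p = 0.0374). Neither gene's groups overlapped. mt-Atp6, part of the proton channel of ATP synthase, was at 982 to 1105 and 1103 to 1864 CPM (0.50, SE 0.17, adjusted p = 0.0306), with the lowest EXP library inside the CTRL range.

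mt-Co3 and mt-Co1 did not pass at day 1. mt-Co3 was at 972 to 1243 CPM in CTRL and 1219 to 1736 CPM in EXP (log2 0.38, SE 0.17, adjusted p = 0.104, edgeR). mt-Co1, the catalytic subunit of complex IV, measured 1492, 1437, 1209 and 1280 CPM in CTRL and 1443, 942, 1189, 1488 and 1307 CPM in EXP. Its groups overlapped almost fully, and EXP stood at -0.09 log2 against CTRL (SE 0.33, adjusted p = 0.866, edgeR). Scaled to library totals without TMM, its value was 0.12. In all, 7 of the 10 separated EXP above CTRL at day 1, and the 3 that did not were mt-Atp6, mt-Co3 and mt-Co1. The share of all genes tested that separated in this way was not computed, and 28.6% of them passed the test in either direction.

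**Figure D2:**
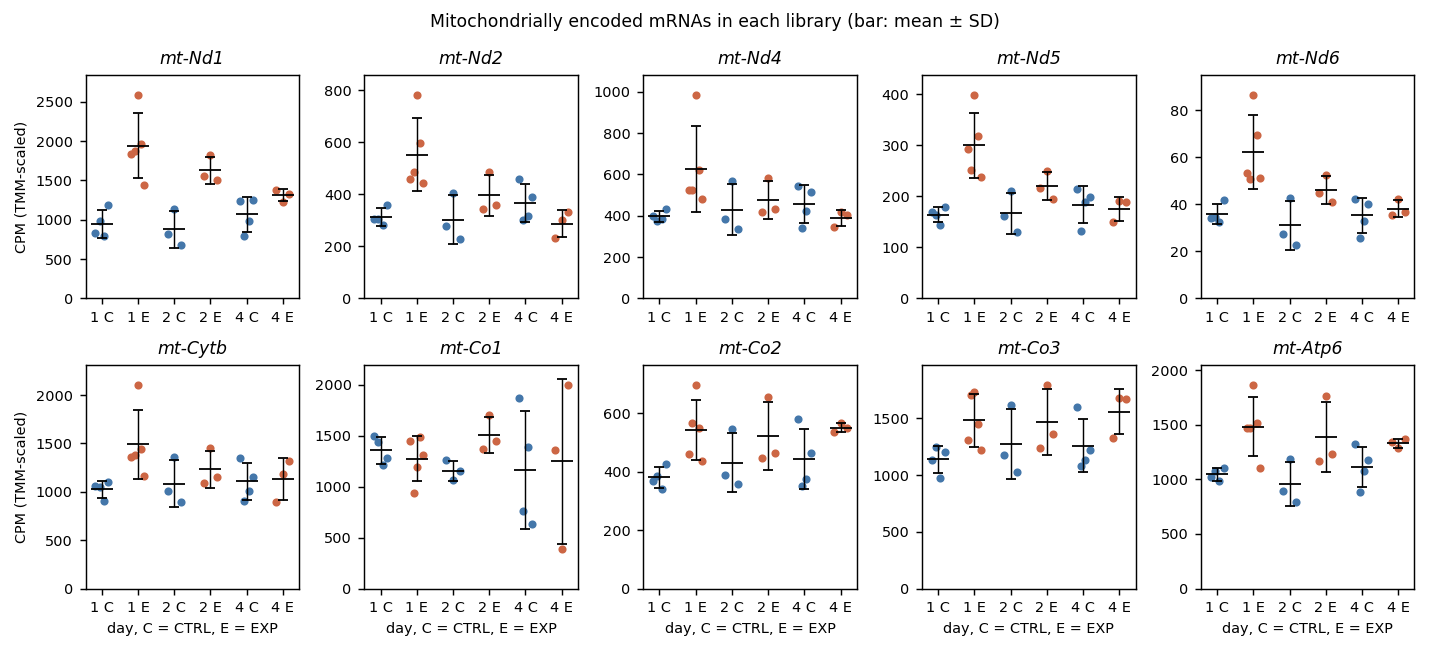
CPM after TMM scaling of each of the 10 messenger RNAs, 1 point per library, by day (1, 2, 4) and arm (C, CTRL, blue; E, EXP, orange); black bars are mean ± SD. At day 1 EXP lies above CTRL without overlap for 7 genes, at day 4 the groups of all 10 overlap, and mt-Co1 spreads from 387 to 1996 CPM in day 4 EXP. The share of all genes that separate in this way was not computed.

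The day 1 count varied with single libraries and was smaller within the high side of the split, as was the share of all genes that passed. Without CTRL 2, CTRL 3 or EXP 3 it was 4 of 10 and without CTRL 1 it was 5, while mt-Nd1, mt-Nd2, mt-Nd5 and mt-Nd6 passed in each of the 9 fits that left out 1 day 1 library. Within the high side of the split (3 CTRL and 2 EXP libraries) 2 of the 10 passed, mt-Nd1 and mt-Nd5, with 5 at an unadjusted p under 0.05. Of all genes tested, 15.6% passed there, against 28.6% in the main fit, so the count of 2 is near that share. The low side held 1 CTRL library, assumed to vary like the other groups, and 3 EXP libraries. A single CTRL library shows no spread, so no count is drawn from that side. The day 1 count over all libraries was 7 with upper quartile scaling, 6 with no filter on low counts and 6 with a term for the split. With that term mt-Cytb (adjusted p = 0.0664) and mt-Co2 (adjusted p = 0.0718) did not pass. With library totals in place of TMM 9 of the 10 passed at day 1, and 66.2% of all called genes were higher against 48.7% with TMM. Of all genes tested, 29.2% passed on that scale in either direction. Immune markers summed to 4.22 to 12.7 CPM in CTRL and 13.9 to 29.0 CPM in EXP at day 1, with 2 and 1 of the 7 at 0 in every library. Keratinocyte markers summed to 7.63 to 48.4 and 2.31 to 15.3 CPM, and pericyte and smooth muscle markers to 42.5 to 83.5 and 12.6 to 41.3 CPM, with none of the 8 or the 6 at 0 throughout. Adipocyte markers summed to 0.424 to 13.0 CPM in CTRL and to at most 0.349 CPM in EXP. The part of these markers in the day 1 values was not tested.

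At day 2 mt-Nd1 alone passed the test, 1 of 10 against 13.4% of all genes tested (7.72% higher and 5.71% lower). It measured 825, 1140 and 679 CPM in CTRL and 1555, 1823 and 1504 CPM in EXP. The lowest EXP library was above the highest CTRL library, a fold of 1.85 (log2 0.89, SE 0.23, adjusted p = 0.0150, edgeR). The call was lost without CTRL 1, CTRL 3 or EXP 2.

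The other 9 had day 2 log2 fold changes of 0.15 (mt-Nd4) to 0.57 (mt-Nd6) and did not pass. mt-Co1 measured 1258, 1064 and 1148 CPM in CTRL and 1366, 1704 and 1447 CPM in EXP. Its groups did not overlap, yet the fit, which shares the spread over all groups, gave 0.38 with an SE of 0.40. CTRL 2 was the highest day 2 CTRL library for 9 of the 10, all but mt-Co1, and without it 2 genes passed. The median over the 10 was 0.38, against 0.02 over all genes.

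With library totals in place of TMM, 8 of the 10 passed at day 2, all higher, and 26.4% of all genes tested passed in either direction. On that scale the median of all genes was itself 0.49 at day 2, and 90.5% of all called genes were higher, against 57.5% with TMM. On library totals the median of all genes was 0.21 at day 1 and 0.36 at day 4. Adipocyte markers summed to 54.0 CPM in EXP 1, 2.47 and 3.42 CPM in the other EXP libraries and at most 2.51 CPM in CTRL at day 2, and without EXP 1 the count with TMM was 1. Immune markers summed to 6.42 to 11.3 CPM in CTRL and 15.4 to 32.4 CPM in EXP at day 2, with 1 and 0 of the 7 at 0 in every library. Endothelial markers summed to 0.135 to 0.575 and 1.02 to 2.41 CPM, with 1 of the 6 at 0 in every library of each arm. Pericyte and smooth muscle markers were lower in EXP, at 22.8 to 45.3 against 76.6 to 90.8 CPM, and so were melanocyte and Schwann cell markers, at medians of 21.6 against 25.8 CPM without overlap. The fibroblast markers summed to 328744 to 408884 CPM in CTRL and 68800 to 171571 CPM in EXP. The part of these markers in the day 2 values was not tested.

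At day 4 none of the 10 passed, with 22.5% of all genes tested passing by edgeR (12.8% higher and 9.66% lower). At an unadjusted p under 0.05 the count was also 0, and DESeq2 and limma voom gave 0. On library totals it was 4, all higher (mt-Nd1, mt-Co2, mt-Co3 and mt-Atp6), and 80.8% of all called genes were higher on that scale against 57.0%. Of all genes tested, 30.1% passed on that scale in either direction. With TMM the log2 fold changes ran from -0.35 (mt-Nd2) to 0.31 (mt-Co2), with a median of 0.11 against 0.03 over all genes.

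mt-Nd2 at day 4 measured 459, 303, 316 and 391 CPM in CTRL and 231, 301 and 332 CPM in EXP, the reverse order of day 1 with overlapping groups (log2 -0.35, SE 0.23, adjusted p = 0.278, edgeR). mt-Nd1 measured 1240, 797, 987 and 1256 CPM in CTRL and 1377, 1232 and 1330 CPM in EXP (0.30, SE 0.21, adjusted p = 0.334). Day 4 EXP levels of mt-Co2, 536, 566 and 550 CPM, and of mt-Atp6, 1344, 1284 and 1366 CPM, were close together while CTRL spread from 351 to 580 and from 884 to 1323 CPM. Adipocyte markers summed to 117 CPM in EXP 2, 347 CPM in EXP 3 and 1.88 CPM in EXP 1, against 0.129 to 1.11 CPM in CTRL. Immune markers summed to 2.10 to 12.3 CPM in CTRL and 19.7 to 36.6 CPM in EXP, and endothelial markers to medians of 2.03 and 7.50 CPM, with the lowest EXP library (4.51) above the highest CTRL library (4.21). The 4 nuclear-retained RNAs, Malat1, Neat1, Meg3 and Kcnq1ot1, summed to 1114 to 2252 CPM in CTRL and 462 to 1591 CPM in EXP, with medians of 1559 and 578. The part of these in the day 4 values was not tested. The number of the 10 that passed was 0 without any 1 day 4 library.

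**Figure D3:**
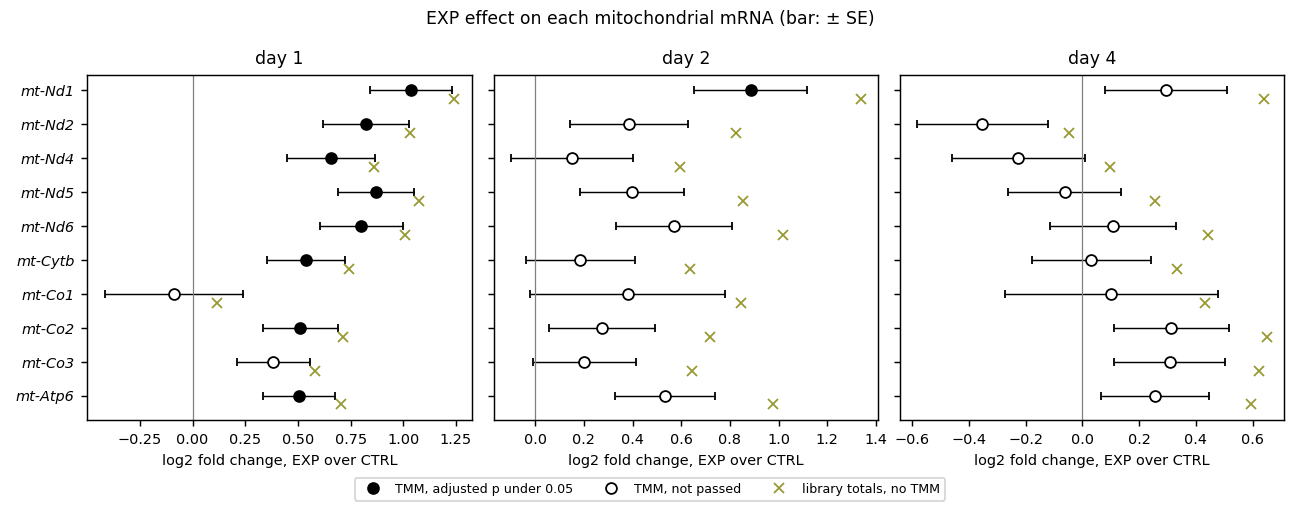
log2 fold change of EXP over CTRL for each of the 10 messenger RNAs at days 1, 2 and 4, with TMM scaling (circles with ± SE, filled where the adjusted p is under 0.05) and with library totals only (crosses, no error shown). Filled circles number 8, 1 and 0, and the crosses lie to the right by about the shift of all genes, 0.21, 0.49 and 0.36; the horizontal scales differ between days.

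The difference in the EXP effect between days was tested directly. Over the 3 days 1 of the 10 passed, mt-Nd2 (adjusted p = 0.0450, edgeR), against 8.82% of all genes. From day 1 to day 4 the EXP effect fell by 1.18 on the log2 scale for mt-Nd2 (SE 0.31, adjusted p = 0.0167) and by 0.93 for mt-Nd5 (SE 0.27, adjusted p = 0.0262), where 13.3% of all genes passed and 5.18% passed as lower. The other 8 did not pass this comparison, from -0.88 (mt-Nd4) to 0.19 (mt-Co1). When 1 of the 22 libraries was dropped at a time, the 3-day result for mt-Nd2 held in 9 fits and failed in the rest.

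Within the EXP arm, 4 of the 5 complex I messenger RNAs fell from day 1 to day 4. Over the 3 EXP days mt-Nd2 (adjusted p = 0.0178) and mt-Nd5 (adjusted p = 0.0233) passed, against 14.3% of all genes. From day 1 to day 4 alone 4 of the 10 were lower, where 19.0% of all genes passed and 6.87% were lower: mt-Nd2 by -0.94 (SE 0.23, adjusted p = 0.00653), mt-Nd5 by -0.77 (SE 0.20, adjusted p = 0.00966), mt-Nd6 by -0.71 (SE 0.22, adjusted p = 0.0270) and mt-Nd4 by -0.69 (SE 0.23, adjusted p = 0.0398). mt-Nd1, at -0.57, did not pass (adjusted p = 0.0629), nor did the complex III, IV and V genes, from -0.40 (mt-Cytb) to 0.07 (mt-Co3). Without day 1 EXP 3 the count over the EXP days was 1, and without day 4 EXP 1 it was 0. Both comparisons use the same day 1 EXP libraries as the day 1 comparison.

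Within the CTRL arm none of the 10 differed over days by edgeR, where 0.291% of all genes passed. The smallest unadjusted p of the 10 was 0.409, so none was under 0.05, and DESeq2 and limma voom also gave 0.

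The mixture of the 10 messenger RNAs, as shares of their own summed counts, does not depend on scaling. Shares of 10 genes at 3 days gave 30 exact permutation tests (two-sided), and after Benjamini-Hochberg adjustment over the 30 none passed. mt-Nd1 made up 13.9% ± 1.73 (SD, n = 4) of the 10 in CTRL and 19.8% ± 0.943 (n = 5) in EXP at day 1, with an exact p of 0.00794, the smallest this design allows, and an adjusted p of 0.119. At day 2 it made up 13.0% ± 0.970 and 18.4% ± 1.22 (n = 3 each), where the smallest possible p is 0.1. On both days every EXP library had a larger mt-Nd1 share than every CTRL library. At day 4 the shares, 14.9% ± 1.95 (n = 4) and 16.5% ± 1.86 (n = 3), overlapped.

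The share of mt-Co1 ran the other way at day 1. It was 20.0% ± 1.85 (n = 4) in CTRL and 13.4% ± 3.26 (n = 5) in EXP (exact p = 0.0159 before adjustment), with no overlap. In all, 5 messenger RNAs had an unadjusted exact p under 0.05 at day 1: mt-Nd1, mt-Nd2, mt-Nd5 and mt-Nd6 with larger shares in EXP and mt-Co1 with a smaller one. Shares are parts of the same sum, so a smaller mt-Co1 share by itself enlarges the others. These 5 are therefore not separate results. At day 2, beside mt-Nd1, 4 messenger RNAs had shares that did not overlap, each with an exact p of 0.1. mt-Cytb (16.1% ± 0.505 and 13.9% ± 0.158, n = 3 each), mt-Co3 (18.9% ± 0.878 and 16.5% ± 0.653) and the complex I gene mt-Nd4 (6.32% ± 0.595 and 5.35% ± 0.135) had smaller shares in every EXP library. mt-Atp6 had a larger one (14.2% ± 0.270 and 15.5% ± 1.01). At day 4 the shares of mt-Nd2 (5.13% ± 0.454, n = 4, and 3.59% ± 0.549, n = 3) and mt-Nd4 (6.34% ± 0.640 and 4.89% ± 0.751) were smaller in EXP, each with an exact p of 0.0286 before adjustment, the smallest day 4 allows.

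**Figure D4:**
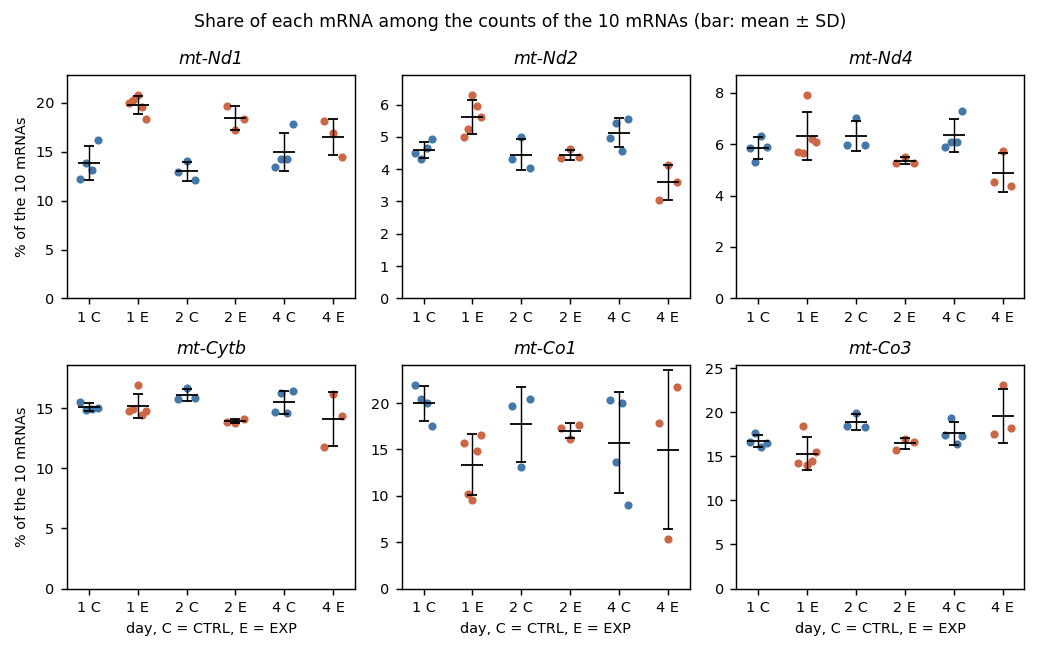
Share of 6 of the messenger RNAs in the summed counts of the 10 (percent, vertical), 1 point per library, by day and arm (C, CTRL, blue; E, EXP, orange); black bars are mean ± SD. The mt-Nd1 share is larger in EXP at days 1 and 2, the mt-Co1 share is smaller in EXP at day 1, and single libraries fall to 5.32% (EXP) and 8.97% (CTRL) for mt-Co1 at day 4.

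mt-Co1 varied between libraries of a group more than the other 9 at day 4. At day 4 it measured 1871, 759, 1387 and 633 CPM in CTRL and 1360, 387 and 1996 CPM in EXP, a coefficient of variation of 49.5% and 64.9%. For the other 9 it was at most 23.4% in either day 4 group. In EXP 2, where mt-Co1 was lowest, mt-Co3 was at 1680 CPM, the highest of its group.

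Features next to or like mt-Co1 were low in the same library. Gm29216, the partial copy, was at 112 CPM in day 4 EXP 2 against 492 and 649 CPM in EXP 1 and EXP 3, and Gm13340, a full-length copy at 97.6% identity, was at 10.7 CPM against 49.0 and 44.1 CPM. mt-Ts1, the transfer RNA gene next to mt-Co1 on the other strand, had 1.84 CPM in EXP 2 against 12.2 and 7.57 CPM. The counts of these features were low with that of mt-Co1 there, and the cause was not tested.

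Of the 27 other genes of the mitochondrial genome, 11 passed the filter on low counts. At day 1 the complex I subunits mt-Nd3 (log2 0.88, SE 0.26, adjusted p = 0.0156, edgeR) and mt-Nd4l (0.60, SE 0.15, adjusted p = 0.00596) were higher in EXP. mt-Atp8, which overlaps mt-Atp6, had a value of 0.36 (SE 0.16, adjusted p = 0.0914). The ribosomal RNAs mt-Rnr1 (0.37, SE 0.23, adjusted p = 0.243) and mt-Rnr2 (0.42, SE 0.24, adjusted p = 0.206) did not pass. By edgeR 0 of the 11 passed at day 2 or day 4, with 1 on each day at an unadjusted p under 0.05. Of all genes tested, 13.9% were higher at day 1, and 13.4% and 22.5% passed at days 2 and 4. The day 1 calls among the 11 lie near that day 1 share. At day 1 mt-Nd4l passed in each of the 9 fits that left out 1 library, and mt-Nd3 did not without CTRL 1 or CTRL 3.

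Nuclear genes of the same complexes passed as higher most often at day 4, in a count that varied with single libraries, and their change between days did not pass the test. Of 70 tested nuclear subunits of complexes I, III, IV and V, 9 were higher and 1 lower at day 1, 4 higher at day 2, and 25 higher at day 4, where 13.9%, 7.72% and 12.8% of all genes tested were higher. Their median log2 fold changes were 0.20, 0.38 and 0.55, and those of the 10 mitochondrial messenger RNAs 0.60, 0.38 and 0.11. The EXP effect of 0 of the 70 differed between days by edgeR (5 at an unadjusted p under 0.05), and the difference between the nuclear and mitochondrial sets was not tested. For complex I, 13 of 36 nuclear subunits were higher at day 4, with Ndufa10 at 0.90 (adjusted p = 0.00217) and Ndufa8 at 0.89 (adjusted p = 0.00830), both accessory subunits. At day 1 2 were higher and 1 lower, with Ndufv3 at -0.56 (adjusted p = 0.0365) and Ndufs8, which holds iron-sulfur clusters, at 0.55 (adjusted p = 0.0446). Ndufa10 passed at day 4 in each of the 7 fits that left out 1 library and Ndufa8 in all but that without EXP 2, while Ndufv3 and Ndufs8 each lost their call in 6 of 9 such fits at day 1.

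In the other complexes 3 of 9 nuclear subunits of complex III, 5 of 12 of complex IV and 4 of 13 of complex V were higher at day 4, where 12.8% of all genes were, and without EXP 2 each of these counts was 1. Examples are Uqcrc1 of complex III (0.66, adjusted p = 0.00377), Cox5a of complex IV (0.95, adjusted p = 0.00483) and Atp5g2 of complex V (1.43, adjusted p = 0.00133), all 3 of which passed in each of the 7 fits that left out 1 library. The day 4 count of 25 for all 70 was 4 without EXP 2, 10 without CTRL 3 and 12 without EXP 1. It was 13 without CTRL 4 and 40 without EXP 3. Adipocyte markers stood at 1.88, 117 and 347 CPM in day 4 EXP 1, EXP 2 and EXP 3, and their part in these counts was not tested. On library totals 20, 44 and 56 of the 70 were higher at days 1, 2 and 4. Of all 17554 genes tested, 3397, 4191 and 4271 were higher on that scale. The day 1 count of 9 ran from 4 (without CTRL 1 or EXP 2) to 18 (without EXP 1), and the day 2 count of 4 was 0 without CTRL 2 or EXP 1.

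**Figure D5:**
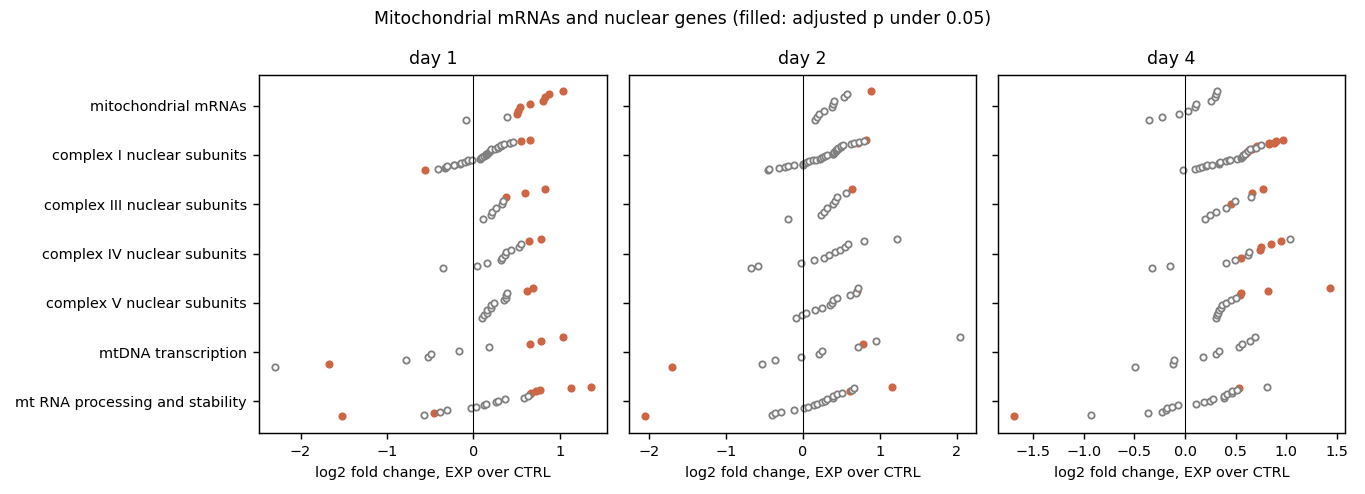
log2 fold change of EXP over CTRL (horizontal) at days 1, 2 and 4 for the 10 mitochondrial messenger RNAs and 6 lists of nuclear genes, 1 point per gene, filled where the adjusted p is under 0.05; height within a list only spreads the points. At day 1 filled points are 8 of 10 for the mitochondrial messenger RNAs and 2 higher and 1 lower of 36 for complex I nuclear subunits, and at day 4 they are 0 of 10 and 13 of 36. Of all genes tested, 28.6% passed at day 1 and 22.5% at day 4. With 1 library left out, the count of 8 fell to as few as 4 and the count of 13 ran from 1 to 24.

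Of 10 tested genes that transcribe mitochondrial DNA, 3 were higher and 1 lower at day 1, 1 higher and 1 lower at day 2, and 0 passed at day 4 (1 at an unadjusted p under 0.05). Of all genes tested 28.6%, 13.4% and 22.5% passed on these days, and the day 2 count lies near that share. At day 1 Tfb2m, the factor that opens mitochondrial promoters, was higher by 1.04 (SE 0.19, adjusted p = 4.82e-04) and Tfam, which packages mitochondrial DNA and starts its transcription, by 0.78 (SE 0.16, adjusted p = 9.95e-04), and both passed in each of the 9 fits that left out 1 day 1 library. At day 2 Polrmt, the mitochondrial RNA polymerase, was higher by 0.78 (SE 0.23, adjusted p = 0.0284) and Tfb1m, a methyltransferase of the small ribosomal RNA, was at -1.71 (SE 0.50, adjusted p = 0.0271). The Polrmt call was lost in 4 of the 6 fits that left out 1 day 2 library and the Tfb1m call in 5 of 6. Neither passed without CTRL 2, CTRL 3, EXP 1 or EXP 3. With library totals 3 of the 10 were higher and none lower at day 2, and 2 were higher at day 4. On that scale 26.4% and 30.1% of all genes tested passed on these days in either direction.

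Of 20 tested genes that cut, tail or stabilise mitochondrial RNA, 6 were higher and 2 lower at day 1, 2 and 1 at day 2, and 1 and 1 at day 4, against 28.6%, 13.4% and 22.5% of all genes in either direction. The day 2 count is near that share and the day 4 count below it. On library totals 8 were higher and 1 lower at day 1, 12 and 1 at day 2, and 10 and 1 at day 4. Of all genes tested, 29.2%, 26.4% and 30.1% passed on that scale in either direction. Pde12, an enzyme that removes poly(A) tails from mitochondrial messenger RNA, was lower on each day, at -1.52 on the log2 scale on day 1 (SE 0.27, adjusted p = 3.10e-04). It stood at -2.06 on day 2 (SE 0.34, adjusted p = 7.15e-04), and on day 4 at -1.69 (SE 0.32, adjusted p = 0.00163), and it passed as lower on library totals and without any 1 library of the day. Trmt10c, part of the ribonuclease P that frees transfer RNAs from the precursor, was higher at day 1 by 1.13 (SE 0.26, adjusted p = 0.00265). Fastkd3, a mitochondrial RNA-binding protein, was higher at day 2 by 1.16 (SE 0.23, adjusted p = 0.00307), and both calls held without any 1 library of the day. Elac2, which cuts the other end of transfer RNAs, was higher at day 4 by 0.53 (SE 0.18, adjusted p = 0.0378), a call that held only without EXP 3 among the 7 fits that left out 1 library.

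Genes that copy mitochondrial DNA or supply its nucleotides had 0 higher and 3 lower of 10 at day 1, 1 and 1 at day 2, and 2 and 0 at day 4. These counts are near the 28.6%, 13.4% and 22.5% of all genes that passed. Tk2, the mitochondrial thymidine kinase, was at -0.70 (adjusted p = 0.00958) at day 1 and -0.81 (adjusted p = 0.0277) at day 2, and Dguok, the deoxyguanosine kinase, at -0.77 (adjusted p = 0.00852) at day 1. The day 1 calls of both held without any 1 library but not on library totals (adjusted p = 0.0555 and 0.0584), and the day 2 call of Tk2 was lost in all 6 fits that left out 1 library. Top1mt, the mitochondrial topoisomerase, was higher by 1.43 (adjusted p = 0.0268) at day 2 and passed as higher again at day 4 (adjusted p = 0.00935), and Ssbp1, the single-strand binding protein, by 0.95 (adjusted p = 0.00801) at day 4. Both day 4 calls were lost without EXP 1, and the Top1mt call at day 2 without CTRL 1, CTRL 2 or EXP 1. Of 9 regulators of mitochondrial biogenesis 1 passed, Sirt3, a mitochondrial deacetylase, at -1.28 at day 2 (adjusted p = 0.0209), with 3 and 2 at an unadjusted p under 0.05 at days 1 and 4, and its call was lost in 4 of 6 fits that left out 1 library. Of 13 translation factors 0, 1 and 2 were higher at days 1, 2 and 4: Gfm1, an elongation factor, at day 2 (0.69, adjusted p = 0.0373), and Oxa1l, which inserts subunits into the membrane (0.62, adjusted p = 0.00605), and Tsfm, another elongation factor (0.81, adjusted p = 0.0248), at day 4. Oxa1l passed without any 1 day 4 library, while Gfm1 was lost in 4 of 6 such fits and Tsfm in 4 of 7. The counts for biogenesis regulators and translation factors were not above the share of all genes that passed on any day.

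The nuclear genes whose log2 CPM ran most like the mean of the 10 over the 22 libraries, among 9797 genes that averaged 5 CPM or more, were Mycbp2 (Pearson r = 0.80), Trnt1 (0.80), Slc6a8 (0.78), Gclc (0.78) and Eya3 (0.78). Trnt1, which adds the CCA end to transfer RNAs, averaged 28.9 CPM in CTRL and 43.6 CPM in EXP at day 1, and Gclc, the first enzyme of glutathione synthesis, 6.08 and 30.8 CPM. The most opposite were Rhbdd1 (-0.84), Scara3 (-0.81), Arhgef28 (-0.80), Fbxo25 (-0.80) and Pofut1 (-0.79). Scara3, a scavenger receptor-like protein, averaged 418 and 164 CPM at day 1 and 427 and 313 CPM at day 4. These correlations describe the libraries, which share arms and days, and carry no test.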

How the data were processed

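The authors deposited a table of raw counts per Ensembl gene for 22 libraries (per the labels, total RNA from sorted cells, paired reads of an ultra-low-input protocol). Per the submitters' processing notes, Trimmomatic and the build mm39 were used; the aligner, counter, annotation and strandedness are not given in the sources used here. Symbols (for 52081 of 55414 identifiers), transcript lengths and sequences came from GENCODE M21, which is of another build, so no coordinates are given. Nuclear copies were found with blastn 2.17.0 (at least 95% identity over 100 bases). Genes were filtered with edgeR 4.0.16 (smallest count 10), scaled with TMM, and tested with its robust quasi-likelihood test in 1 model of 6 group means (16 residual degrees of freedom, R 4.3.3), with Benjamini-Hochberg adjustment over 17554 genes and a threshold of 0.05. CPM is the count over the TMM-scaled library total. Shares were tested with exact permutation tests in Python (scipy 1.17.1 and pandas 2.3.3).

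The members and gene lists were chosen with earlier results of these data known. Text names all 10 members, other mitochondrial genes, the 2 genes of smallest p per nuclear list and day among those that passed, and the 5 genes most and least like the members' mean. Alternatives were other scalings, filters, DESeq2 1.42.0, limma 3.58.1 voom, a replicate block, a term for the library split, each library left out, and, chosen after seeing the data, adding nuclear copies, fits within the split, and nuclear lists and their called genes under other scalings and with each library left out. The fit was tested on simulated data for day 1, with 50 genes changed at each fold. It called 4%, 36% and 84% of genes changed 1.5-, 2- and 4-fold and 44% of those changed 0.5-fold. Of its 87 calls 3 were false. The data gave 5017 calls at day 1, so these rates need not hold there.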

Additional observations from a re-analysis of the deposited data

Results flagged for a closer look

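Among 63 groups of 4 or 5 libraries tested for a single library far from the rest, 5 stood out, where chance gives about 3.15. mt-Nd4 was at 984 CPM in day 1 EXP 3, against 480 to 622 CPM in the other day 1 EXP libraries. In the same library mt-Nd4 made up 7.92% of the counts of the 10 messenger RNAs (5.65% to 6.21% in the others) and mt-Cytb 16.9% (14.4% to 14.9%). In day 4 CTRL 4, mt-Nd4 made up 7.29% (5.87% to 6.10% in the others) and mt-Nd6 0.571% (0.457% to 0.474%). The EXP effect on mt-Nd2 differed between days 1, 2 and 4 with an adjusted p of 0.0450 by edgeR's quasi-likelihood test, from a log2 fold change of 0.82 at day 1 to 0.39 at day 2 and -0.35 at day 4.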

How the results depend on the processing

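The number of the 10 messenger RNAs that passed was 8, 1 and 0 at days 1, 2 and 4, 1 for the EXP effect between days and 2 for EXP over days. Library totals without TMM gave 8 at day 2, 4 at day 4 and 0 for the effect between days. At day 1 upper quartile scaling gave 7, no filter on low counts 6 and a term for the library split 6. Upper quartile scaling and no filter on low counts each gave 0 for the effect between days, DESeq2 gave 2, voom gave 3 at day 2 and 1 for EXP over days, and fitting the EXP libraries alone gave 0 over days. Within the high side of the library split the day 1 count was 2, where 15.6% of all genes tested passed. Leaving out 1 library gave 4 to 8 at day 1, 0 to 2 at day 2, 0 at day 4, 0 to 2 for the effect between days and 0 to 3 for EXP over days. Values whose sign turned all belonged to genes that had not passed, and the cause was not tested: on library totals mt-Co1 at day 1 was 0.12 and mt-Nd4 and mt-Nd5 at day 4 were 0.10 and 0.25; with voom mt-Nd5 and mt-Co1 at day 4 were 0.016 and -0.57; with a term for the split mt-Nd6 and mt-Cytb at day 4 were -0.0057 and -0.036; within the low side mt-Co1 at day 1 was 0.053, and mt-Nd5 and mt-Co1 at day 4 were 0.021 and -0.076. Leaving out 1 library, the log2 fold change of mt-Co1 at day 1 ran from -0.14 to 0.0029, of mt-Nd4 at day 2 from -0.026 to 0.40, and at day 4 of mt-Nd5 from -0.19 to 0.047, mt-Nd6 from -0.016 to 0.21, mt-Cytb from -0.076 to 0.18 and mt-Co1 from -0.42 to 0.51. The EXP to CTRL ratio of the share of all counts ran from 1.52 to 1.74, 1.65 to 2.10 and 1.29 to 1.52 at days 1, 2 and 4 when 1 library was left out.

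With the replicate number as a block within day, 7, 1 and 0 messenger RNAs passed at days 1, 2 and 4 and 0 for the effect between days, and mt-Co1 at day 4 turned to -0.31. The numbers showed no pairing throughout, and without a reference for unpaired libraries this check cannot exclude pairing. Of 10 same-numbered pairs, 3 had deviations correlated above 0.1. By best correlation, 4 of 10 CTRL libraries matched the EXP library of their own number. Among them were all 3 of day 4, where the correlations were 0.0795, 0.146 and 0.109. The block was not run for changes over days, since it takes up the day difference. Over all genes, counts that moved by more than 1.5 times were, at day 2, 4632 on library totals and 4567 with voom against 2359; at day 4, 1128 fitted alone against 3943; for the effect between days, 401 with the block and 2606 with DESeq2 against 1549; and for CTRL over days, 29 to 602 against 51. When 1 library was left out they moved as far at day 2 without EXP 1 (891), CTRL 2 (1220), EXP 3 (1401) or CTRL 1 (1465), and at day 4 without EXP 1 (1633) or EXP 2 (2001). For the effect between days the count was 898 without day 1 CTRL 3, 951 without day 4 EXP 2 and 2572 without day 4 EXP 3, for EXP over days it was 1647 without day 4 EXP 1 and 1367 without day 4 EXP 2, and for CTRL over days it ran from 5 to 92. Within the split they were 2736 on the high side at day 1 against 5017, and 1562 on the low side at day 4. EXP libraries fitted alone gave 1267 over days against 2502.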
